A study of Mus musculus with 6 samples.

Results

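Dense clusters of open regions in the mouse thymus were the 664 stretches of chromosomes 1 to 19 where at least 5 open regions, each found in all 6 libraries and away from gene ends, followed each other at short range. The member regions were chosen by presence and position alone. A window of 250 bp on either side of each peak summit was taken and overlapping windows were merged. This gave 72291 regions, and every library had a summit in 37606 of them. Of these shared regions, 26685 lay more than 1 kb from either end of every protein-coding gene and are called distal here. Distal shared regions whose edges were at most 12500 bp apart were joined into chains, and the 4352 regions in chains of 5 or more are the members. They made up 16.3% of the distal shared regions, and the remaining 22333 are the regions with which they are compared.

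The libraries came from whole thymus of mice aged 4 weeks, on a background given as 50% BALB/C - 50% C57BL6. Chromatin opened by the transposase of ATAC-seq, an enzyme that cuts accessible DNA, was sequenced. In 3 libraries the genotype was p53 AD/-, in which the AD allele, called dimeric in the series, lies over a null allele, and in 3 it was p53 -/-, called null here. Both genotypes are germline and share at least 1 null allele, no library had wild-type p53, and no label states that the libraries came from separate mice, so the p-values below measure the spread between these libraries. p53, encoded by Trp53, is a transcription factor that works as a tetramer and responds to DNA damage. In whole tissue, fewer cells of a type and less open chromatin per cell cannot be told apart.

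Distal open regions include enhancers, short stretches of DNA that bind transcription factors and raise the output of genes that may lie far away. Enhancers that crowd together over a long stretch are known around genes that set a cell's identity. In thymocytes, the developing T cells that fill the thymus, well-studied enhancers of this kind lie at the Cd8 locus and far downstream of Bcl11b. Whether the members act as enhancers was not measured here.

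The libraries were not equally rich. AD/- libraries 1, 2 and 3 held 54618, 60160 and 44496 summits, and null libraries 1, 2 and 3 held 54152, 55653 and 58019. AD/- library 3 was the shortest list. When it was left out and a summit was asked of the other 5 libraries, there were 985 clusters with 6721 members. Read depth is unknown because the files give no read counts. Members are described below by a score rank, the percentile of the region's best score among the 37606 shared regions of that library (100 is the highest).

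Most members lay deep inside genes or between them, but 97 of the 4352 (2.23%) had the best summit of all 6 libraries inside a 300-base window around a RefSeq transcript start, which runs from 250 bases before the start to 50 after it. The share was 3.87% among the other distal shared regions. The regions at these starts lay more than 1 kb from the outer ends of every coding gene. Whether a start was the main or an alternative one of its gene was not determined. Of the windows printed below, that of Mcl1 had the region closest to a gene end, at 1487 bp. Windows of protein-coding genes accounted for 60 of the 97 members and windows of long noncoding RNA genes for 41, with some members in both. The 7 windows printed here, from RefSeq on GRCm38.p6, show starts whose open region belonged to a cluster, most of them of genes known in lymphocytes, with the searched motifs in capitals on either strand.
Rhoh, chr5:65863334-65863633, plus strand: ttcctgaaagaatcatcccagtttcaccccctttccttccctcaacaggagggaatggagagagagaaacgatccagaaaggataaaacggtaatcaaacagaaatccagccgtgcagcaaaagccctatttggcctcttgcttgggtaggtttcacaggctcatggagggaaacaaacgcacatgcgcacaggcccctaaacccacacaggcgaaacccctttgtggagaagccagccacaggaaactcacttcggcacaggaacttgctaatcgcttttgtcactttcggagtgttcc
Fyb, chr15:6579597-6579896, plus strand: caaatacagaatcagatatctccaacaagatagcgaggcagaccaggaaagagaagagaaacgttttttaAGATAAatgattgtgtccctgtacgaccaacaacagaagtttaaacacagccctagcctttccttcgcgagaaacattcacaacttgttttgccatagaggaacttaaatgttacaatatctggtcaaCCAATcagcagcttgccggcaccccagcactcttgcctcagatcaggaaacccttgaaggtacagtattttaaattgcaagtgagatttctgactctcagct
Sp2, chr11:96977639-96977938, minus strand: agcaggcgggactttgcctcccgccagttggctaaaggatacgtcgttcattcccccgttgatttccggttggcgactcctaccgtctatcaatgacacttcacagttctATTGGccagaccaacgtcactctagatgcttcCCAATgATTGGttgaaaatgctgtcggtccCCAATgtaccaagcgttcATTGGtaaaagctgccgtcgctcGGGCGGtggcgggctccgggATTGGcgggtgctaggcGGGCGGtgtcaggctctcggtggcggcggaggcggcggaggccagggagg
Akna, chr4:63403396-63403695, minus strand: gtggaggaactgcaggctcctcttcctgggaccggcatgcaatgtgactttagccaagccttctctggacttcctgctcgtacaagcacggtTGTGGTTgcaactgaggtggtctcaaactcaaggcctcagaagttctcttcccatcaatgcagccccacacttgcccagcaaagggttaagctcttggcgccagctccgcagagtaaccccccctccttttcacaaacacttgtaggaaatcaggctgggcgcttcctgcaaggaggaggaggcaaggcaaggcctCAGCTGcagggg
Mcl1, chr3:95658471-95658770, plus strand: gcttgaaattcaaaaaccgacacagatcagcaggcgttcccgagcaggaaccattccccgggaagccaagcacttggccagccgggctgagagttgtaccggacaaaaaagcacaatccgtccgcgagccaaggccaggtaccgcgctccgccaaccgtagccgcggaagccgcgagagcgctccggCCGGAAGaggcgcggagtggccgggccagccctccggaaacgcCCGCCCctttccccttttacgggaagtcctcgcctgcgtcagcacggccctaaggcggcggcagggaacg
Trat1, chr16:48772013-48772312, minus strand: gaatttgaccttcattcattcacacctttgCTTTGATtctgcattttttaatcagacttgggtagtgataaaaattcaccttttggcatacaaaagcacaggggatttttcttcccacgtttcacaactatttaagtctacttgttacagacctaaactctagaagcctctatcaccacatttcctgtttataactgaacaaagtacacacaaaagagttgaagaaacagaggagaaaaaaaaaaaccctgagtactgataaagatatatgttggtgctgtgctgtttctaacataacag
Nr4a1, chr15:101266596-101266895, plus strand: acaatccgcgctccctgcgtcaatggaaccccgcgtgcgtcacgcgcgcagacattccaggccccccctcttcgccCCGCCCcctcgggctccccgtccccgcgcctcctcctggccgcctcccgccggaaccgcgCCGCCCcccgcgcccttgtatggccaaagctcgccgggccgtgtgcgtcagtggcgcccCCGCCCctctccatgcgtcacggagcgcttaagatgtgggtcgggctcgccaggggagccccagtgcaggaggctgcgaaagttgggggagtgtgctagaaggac

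Rhoh encodes a GTPase-like protein of blood cells needed for T cell receptor signalling, and its window, with none of the 8 motifs, lay in the largest cluster. Relative to the start, the Rhoh summits stood at −63, −24 and −49 bases in AD/- libraries 1 to 3 and at −8, −49 and −49 in null libraries 1 to 3. Score ranks of the Rhoh region were 70.0, 70.7 and 71.8 in AD/- and 72.7, 71.3 and 75.1 in null, so the genotypes overlapped. Fyb encodes an adaptor of T cell receptor signalling, and its region ranked between 47.0 and 56.5 in the 6 libraries. The Sp2 window stood out for its letters, with 6 copies of the CCAAT box and 2 of the GC box, and its region ranked between 97.5 and 99.3. Sp2 is a zinc finger factor. All 6 Sp2 summits lay at the same base, −213 relative to the start. Akna encodes an AT-hook protein found in lymphocytes, and its window held 1 RUNX motif and 1 E-box. Mcl1, a survival factor of the BCL2 family, had an ETS motif and a GC box in its window and ranks between 81.5 and 85.1. Trat1, an adaptor bound to the T cell receptor, had a TCF/LEF motif and ranks between 54.0 and 62.5. Nr4a1 encodes an orphan nuclear receptor induced by T cell receptor signals, and its window held 3 GC boxes.

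The motifs were counted in the 106 start windows at members, in the 960 windows at other distal shared regions and in all 31396 windows of the table. CAGCTG, the E-box, was present in 30.2%, 18.2% and 16.3% of them. CCAAT, the CCAAT box, was present in 24.5%, 36.1% and 37.3%, and GGGCGG, the GC box, in 44.3%, 62.6% and 36.0%. TGTGGTT, the RUNX motif, was present in 8.49%, 4.90% and 5.32%, and CCGGAAG, the ETS motif, in 6.60%, 14.2% and 9.004%. AGATAA, the GATA motif, was present in 8.49%, 5.73% and 11.2%, CTTTGAT, the TCF/LEF motif, in 2.83%, 2.92% and 3.76%, and TGACGTCA, the cyclic AMP response element, in 1.89%, 3.23% and 1.83%. The share with the E-box was higher and that with the CCAAT box lower at members than in either other set, and the differences were not tested. Median G+C content was 57.7%, 61.7% and 53%. Both strands were searched, no motif contains another, and a match is a run of letters and not a binding site.

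Clusters also covered 18 of the 919 miRNA hairpins of the RefSeq table on these chromosomes, in 17 clusters. The hairpins of miR-142, a miRNA of blood cells, lay within a member of the 8-member Tspoap1 cluster. That member ranked 44.1, 47.4 and 53.6 in AD/- libraries 1 to 3 and 57.4, 43.4 and 49.2 in null libraries 1 to 3, again with overlap. Mir21a, which rises on activation of many cell types, lay in the 5-member Tubd1/Vmp1 cluster, 2087 bp from the nearest member. Mir7-2 lay in the 5-member cluster beside Aen, 2189 bp from the nearest member. The mature forms are printed with the seed, bases 2 to 8, in capitals, and no seed is shared among them.
mmu-miR-142a-5p, chr11:87756867-87756887, plus strand: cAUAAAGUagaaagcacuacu
mmu-miR-142a-3p, chr11:87756903-87756925, plus strand: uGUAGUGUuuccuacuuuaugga
mmu-miR-21a-5p, chr11:86584120-86584141, minus strand: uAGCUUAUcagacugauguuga
mmu-miR-7a-5p, chr7:78888295-78888317, plus strand: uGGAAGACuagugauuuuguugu

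Clusters were short runs of a few regions with a thin tail of large ones. The median cluster had 6 members over 31861 bp, and spans ran from 8095 to 107140 bp and covered 22.9 Mb in all. There were 604 clusters of 5 to 9 members, with 3676 members, and 60 clusters of 10 or more, with 676 members. The median gap between neighbouring members was 5291 bp (quartiles 2492 and 8234), and that between all neighbouring distal shared regions was 17320 bp, a difference that the rule itself sets. Just inside the rule were 255 chains of 5, and just outside it were 573 chains of 4 with 2292 regions. The widest gap that was joined measured 12495 bp and the narrowest that was not joined 12501 bp. The nearest member to a gene end was 1002 bp away and the farthest region left out as a gene end was 1000 bp away.

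**Figure D1:**
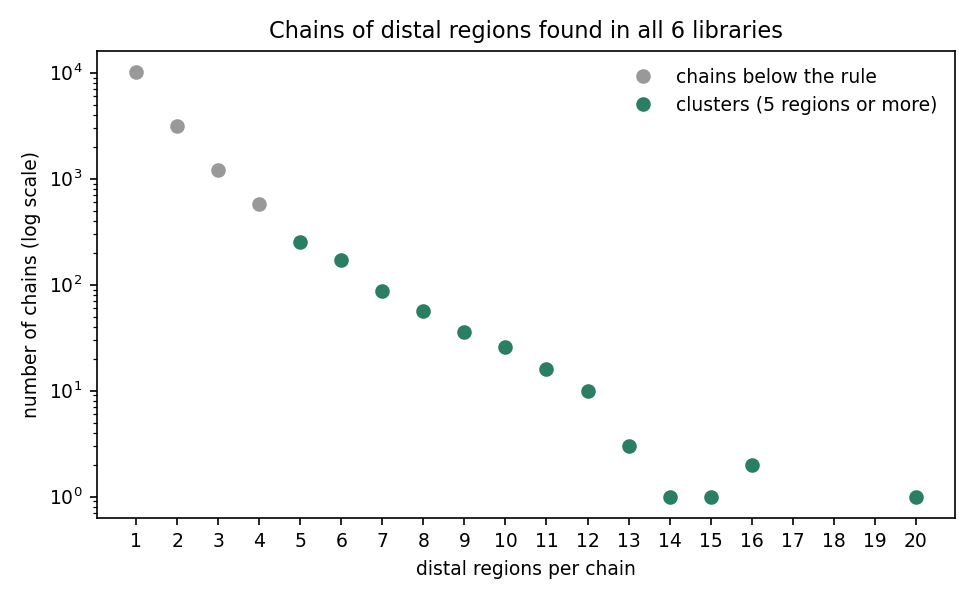
Number of chains (y axis, log scale) by the number of distal regions in a chain (x axis), with the 664 clusters in green and shorter chains in grey. There were 573 chains of 4 and 255 of 5, and the longest chain had 20 regions.

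Member regions had the same median width as the other distal shared regions, 550 bp. Of the members, 57.1% lay inside a protein-coding gene body, as did 56.2% of the others. Their median distance to the nearest gene end was 23978 bp, compared with 16496 bp. Whole clusters lay inside 1 gene body in 262 cases, overlapped no protein-coding gene in 196 cases and straddled a gene boundary in 206 cases. Within the spans there were also 125 shared regions at gene ends, in 105 clusters. Clusters themselves were spread out, with a median of 1258 kb between neighbours, and 56 neighbouring pairs lay within 50 kb. By chromosome, members were between 7.98% (chromosome 19) and 21.5% (chromosome 11) of the distal shared regions.

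The largest cluster, of 20 members over 107 kb (chr5:65849153-65956288), ran from Chrna9, a nicotinic receptor subunit, across Rhoh. Its members had a mean rank of 45.9, 46.5 and 46.5 in AD/- libraries 1 to 3 and 44.1, 46.5 and 44.8 in null libraries 1 to 3, so the genotypes overlapped. Single members ranged from a mean rank of 3.25 to 87.5. In the Cd8a/Cd8b1 cluster, which spans both genes of the CD8 co-receptor (chr6:71307464-71375444), 15 members ranked on average 48.1, 46.0 and 48.7 in AD/- and 47.8, 47.2 and 48.2 in null. Its best member had a mean rank of 85.4 and its lowest 4.29.

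A cluster of 16 members lay 9450 bp from Tcf7 (chr11:52292833-52351370), which encodes TCF1, a factor needed from the earliest T cell stages. Mean ranks there were 44.5, 42.7 and 44.0 in AD/- and 43.8, 46.6 and 43.5 in null, and 1 member reached a mean rank of 94.9. Another 16 members lay in a stretch with no protein-coding gene (chr16:24141268-24238758), 152402 bp from Bcl6, a repressor known from germinal centre B cells and follicular helper T cells. That cluster ranked on average between 39.1 and 41.9 in the 6 libraries, again with overlapping genotypes. Fli1, an ETS factor, held 14 members within its body (chr9:32487266-32539709), with mean ranks between 31.7 and 38.0. A cluster of 13 members lay 35378 bp from Klf13, a zinc finger factor (chr7:63974293-64058299), and was the highest ranked of the 25 largest, at 61.0 ± 1.28 in AD/- and 61.1 ± 1.48 in null (SD of 3 libraries).

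**Figure D2:**
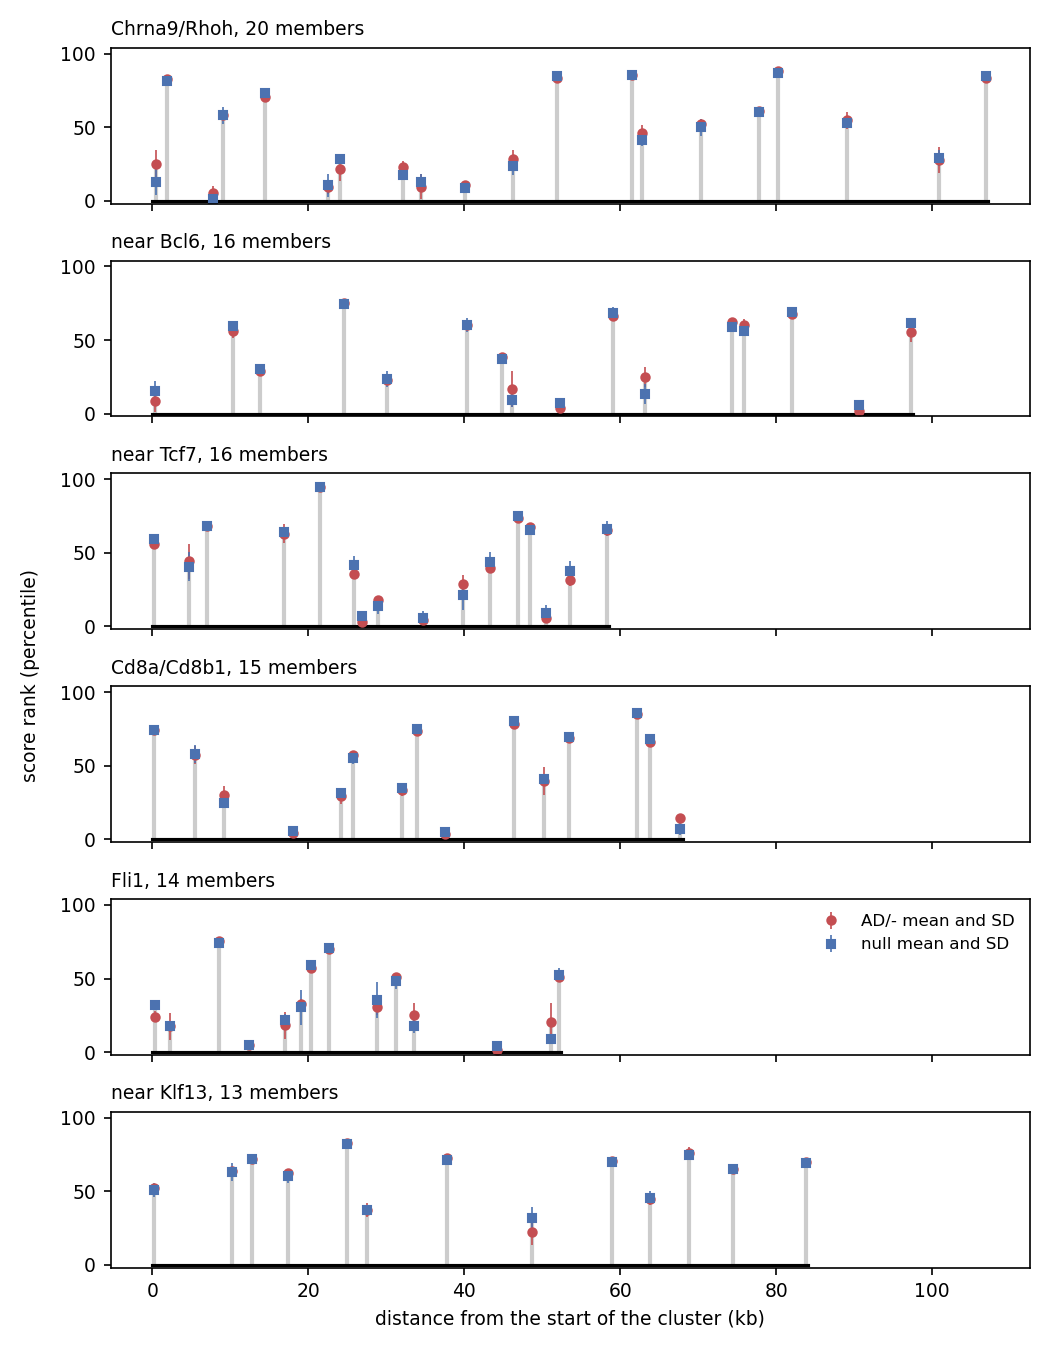
Score rank in percentiles (y axis) of each member against its distance in kb from the start of the cluster (x axis) in the 6 largest clusters, with red circles for the AD/- mean and blue squares for the null mean (bars, SD, n = 3 each; grey stems, the higher mean; black line, the span). High and low ranks lie side by side in each cluster, from 3.25 to 87.5 in Chrna9/Rhoh, and at most members the marks of the genotypes nearly coincide.

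The other clusters among the 25 largest held 11 to 13 members. Ikzf1, which encodes the lymphoid factor Ikaros, held 11 members with the lowest mean rank of the 25, 28.9 ± 0.92 in AD/- and 29.2 ± 0.55 in the null libraries (SD, n = 3 each). The cluster in Ahi1, whose introns are known to hold distal elements of the neighbouring Myb gene, had 11 members at a mean rank of 48.1 ± 1.09 and 47.0 ± 0.45. The cluster in Iftap, near the recombinase genes Rag1 and Rag2, had 11 members at 37.1 ± 0.45 and 37.5 ± 3.30. The Fyb cluster had 12 members at 36.1 ± 0.45 and 35.8 ± 1.92. The cluster across Actb, the cytoskeletal beta-actin gene, and Fbxl18 had 12 members at 57.3 ± 0.28 and 56.6 ± 3.21. The remaining large clusters lay in or beside Znrf1, St8sia1, Cldn10, Ift57, Zfyve28, Poc1b, Ldlrad4, Sema4d, Zfp280d, Eif4e3, Rcsd1, Rnf157, Lrig1 and Haao, with mean ranks over the 6 libraries between 33.8 (Cldn10) and 49.8 (Rnf157). In 24 of these 25 clusters the library means of the genotypes overlapped. The exception was Rnf157, at 50.9, 49.9 and 50.5 in AD/- and 48.7, 49.6 and 49.2 in null. The genotype means differed by 1.27 points, and the closest libraries stood at 49.9 and 49.6.

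**Figure D3:**
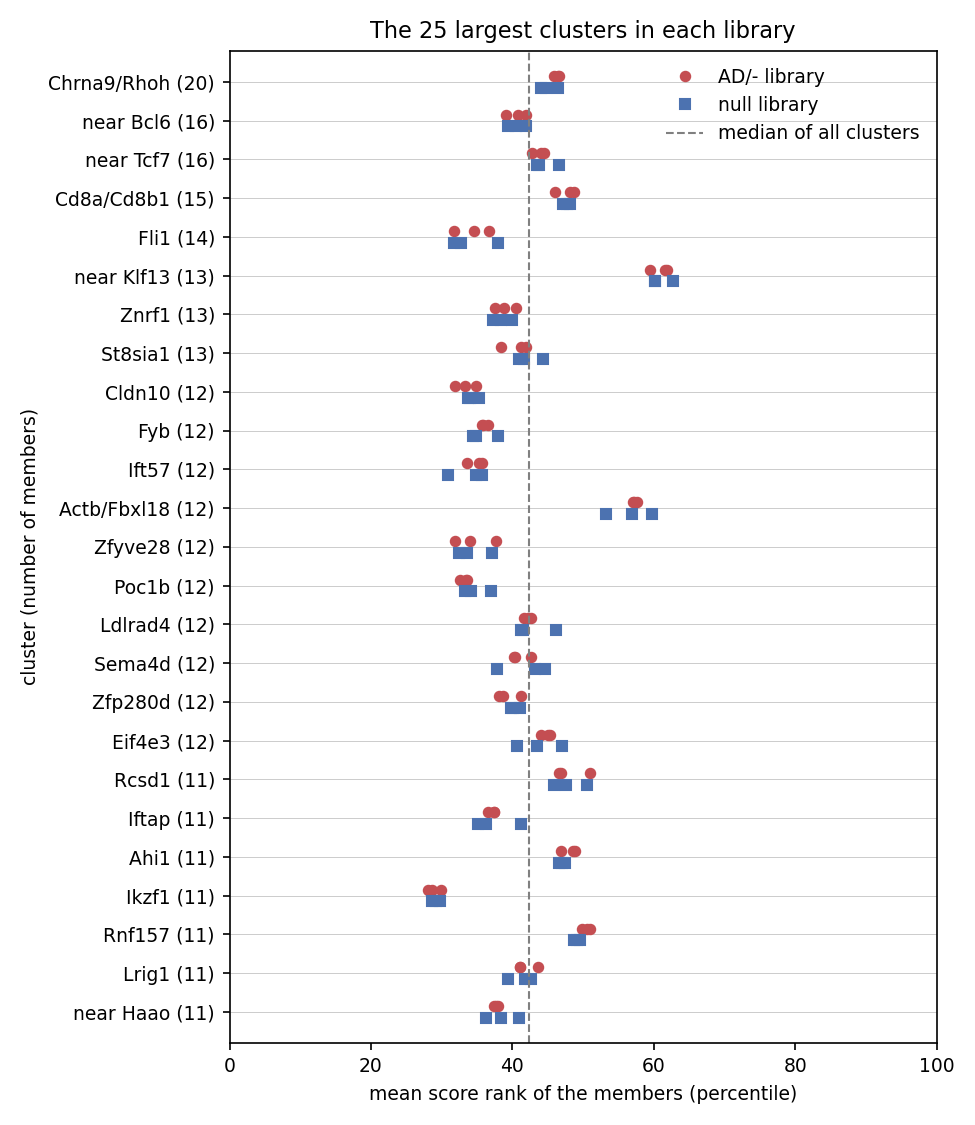
Mean score rank in percentiles of the members (x axis) of each of the 25 largest clusters (y axis, number of members in brackets), with 1 red circle per AD/- library and 1 blue square per null library and the median of all 664 clusters, 42.3, as a dashed line. The cluster near Klf13 lies highest at about 61.0 and Ikzf1 lowest at about 29.0.

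Some genes had several clusters. Gse1 had 4 clusters within 50 kb, and Ets1, Foxp1, Mad1l1, Tbc1d22a, Ntn1, Tnfrsf8 and Ppm1h had 3 each. Ets1 encodes an ETS factor of lymphocytes, and its cluster of 10 members ranked 48.9 ± 0.34 in AD/- and 49.1 ± 0.97 in null (SD of 3 libraries), while a neighbouring one of 6 members ranked 34.8 ± 3.01 and 34.5 ± 1.73. Foxp1, a forkhead factor that maintains T cell quiescence, held 3 clusters within its body at 26.7 ± 3.15, 50.1 ± 1.94 and 36.6 ± 2.92 in AD/- and 28.4 ± 0.83, 50.0 ± 0.95 and 38.1 ± 3.19 in null. Bcl11b, the factor that fixes T lineage commitment, held a cluster of 7 members. It was also the nearest gene to a cluster of 8 members 126120 bp away and to one of 11 members 738998 bp away (chr12:107124081-107171405). The distant cluster was the highest ranked of the 3, at 58.5 ± 0.997 in AD/- and 56.9 ± 0.80 in null (SD of 3 libraries), compared with 42.9 ± 2.95 and 43.7 ± 1.81 for the one inside the gene.

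Ranked by score, clusters ran from a mean rank of 14.3 to 71.2, with a median of 42.3. The highest 5 were Nr4a1 (71.2), the cluster near Prag1 (68.7), Msl1/Nr1d1 (68.7), Gse1 (68.5) and Fmod (68.4), each with 5 or 6 members. In the Nr4a1 cluster the library means were 71.1, 70.2 and 71.9 in AD/- and 71.8, 73.9 and 68.1 in null, so the genotypes overlapped. The lowest 5 were Mad1l1 (16.3) and the clusters near Cx3cr1 (14.7), in Sema6b (14.7), near Dad1 (14.7) and near Klf3 (14.3). The cluster near Dad1 (chr14:54168329-54186638) lay 48847 bp from that gene, at the T cell receptor alpha locus, which is rearranged in thymocytes. The library means of this cluster were 13.66, 12.32 and 12.54 in AD/- and 14.44, 20.08 and 14.97 in null. Every null library was above every AD/- library.

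Members of a cluster were not alike in score. The SD of member ranks around their cluster's mean was 23.9, close to the 24.3 of all members pooled, and the median range within a cluster was 61.6 percentile points. The best single members, at mean ranks above 99, lay in the cluster near Wnt7b (99.5 to 99.9 in the 6 libraries), in Ccne1 (99.0 to 99.7), a cyclin gene, and in Khdrbs1 (98.9 to 99.6), which encodes the RNA-binding protein SAM68. Their distances to the nearest gene end were 52557, 12645 and 1193 bp, the last just past the 1 kb limit of the rule. A member near Fos, an AP-1 subunit, ranked between 98.1 and 99.0.

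Members ranked slightly higher than the other distal shared regions in each library. The median rank of members was 42.7, 42.4 and 43.1 in AD/- libraries 1 to 3 and 41.9, 44.3 and 41.6 in null libraries 1 to 3, and that of the other distal shared regions lay between 38.9 and 39.3. The difference was 3.60 ± 1.04 percentile points (SD, n = 6 libraries), above 0 in 6 of 6 (exact sign-flip permutation test, two-sided, p = 0.03125, the smallest that 6 libraries allow). Adjusted over the 3 comparisons of this kind by the Benjamini-Hochberg method it was 0.0938 and missed 0.05. The number of summits per region was 1.003 in both classes (exact permutation p = 0.406, n = 6), and the median distance of a library's summit from the median position of the other 5 was 8.67 bp at members and 9.17 bp elsewhere (exact permutation p = 0.25, n = 6).

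Very high ranks were less frequent among members than among the other distal shared regions. Regions at a rank of 90 or more made up between 0.965% and 1.38% of members and between 1.98% and 2.08% of the other distal shared regions. The difference was −0.89 ± 0.14 percentage points (SD, n = 6), below 0 in 6 of 6 libraries (exact sign-flip permutation test, adjusted p = 0.0391 over 5 comparisons). This comparison and the next 4, which form 1 family, were chosen after the data were seen. Over all clusters pooled, the 3024 inner members had a higher median rank than the 1328 end members, 2 per cluster. The difference was 0.91 ± 0.48 points, above 0 in 6 of 6 libraries (exact permutation test, adjusted p = 0.0391, n = 6). Inner and end members were not compared within each cluster. Regions in chains of 2 to 4 ranked above regions alone by 1.60 ± 0.94 points, in 6 of 6 libraries (exact permutation test, adjusted p = 0.0391, n = 6). Clusters of 10 or more differed from clusters of 5 to 9 by −0.45 ± 1.01 points, with 3 of 6 libraries above 0 (exact permutation test, adjusted p = 0.375, n = 6). Members inside gene bodies ranked below members outside them, with a difference of −3.06 ± 0.60 points and the same sign in 6 of 6 libraries (exact permutation test, adjusted p = 0.0391, n = 6). Among the other distal shared regions the medians inside gene bodies were 38.6 to 39.2 and those outside 39.1 to 39.7.

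**Figure D4:**
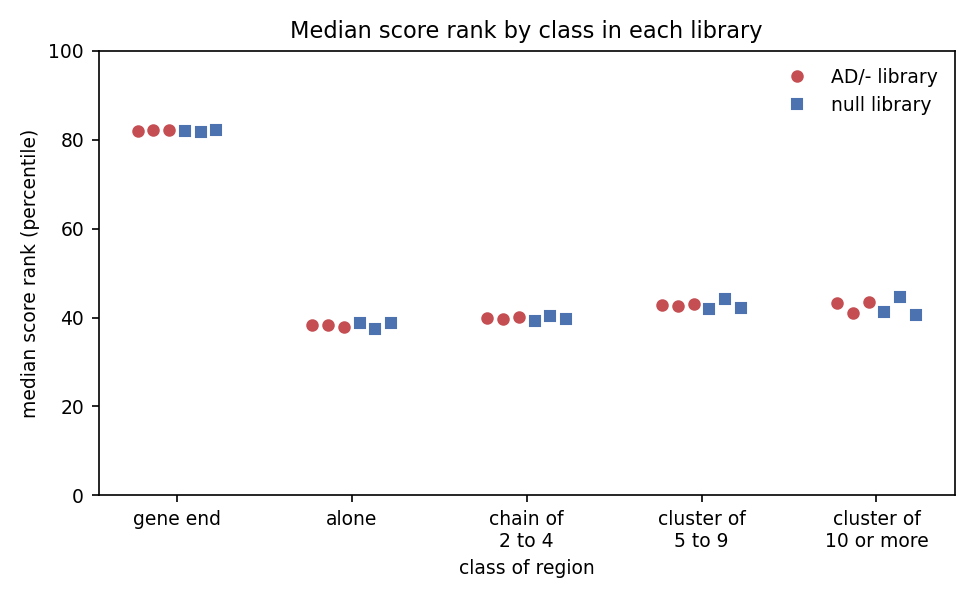
Median score rank in percentiles (y axis) by class of region (x axis) in each library, with red circles for AD/- and blue squares for null. Regions at gene ends lie near 82.0 and the distal classes between 37.3 and 44.6, with a small step up from regions alone (mean 38.2) to chains of 2 to 4 (39.8) and clusters of 5 to 9 (42.8).

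The clusters were next compared between genotypes, the comparison for which the series was designed. Summits inside cluster spans numbered 5131, 5298 and 4786 in AD/- libraries 1 to 3 and 5077, 5207 and 5236 in null libraries 1 to 3. As a share of all summits on chromosomes 1 to 19 these were 9.59%, 8.98% and 10.98% in AD/- and 9.56%, 9.54% and 9.21% in null, the highest in the shortest list. The AD/- mean was 9.85% ± 1.03 and the null mean 9.44% ± 0.20, with SD over 3 libraries each (two-sided exact permutation test, p = 0.7, where 0.1 is the smallest possible). The rule sets most of this count, because each member needs a summit in every library, and members held 4360 to 4371 summits per library. Summits in spans outside members averaged 707 ± 258 in AD/- and 810 ± 90.9 in null (same exact permutation test, p = 0.7). The median rank of members averaged 42.8 ± 0.36 and 42.6 ± 1.45, respectively (same exact permutation test, p = 1.0). Without AD/- library 3 the difference in share changed sign, to −0.20 percentage points.

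No single member passed the test for a difference between genotypes. limma, fitted to normal scores of the ranks over all 37606 shared regions, called 0.0% of them at an adjusted p under 0.05 in either direction, 0 of the 4352 members among them, and the lowest adjusted p of a member was 0.307. At an unadjusted p under 0.05, 135 members (3.10%) ranked higher in AD/-, against 2.78% of all shared regions, and 106 (2.44%) ranked higher in null, against 2.21%. The members' shares are thus near those of all shared regions. Whole clusters gave a like picture. In 39 clusters every AD/- library had a mean rank above every null library, 5.87% against 5.64% of all chains of 2 or more, and in 23 clusters every null library was above, 3.46% against 4.74%.

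The members with the lowest p are given as values that missed the threshold. A member in the second of 2 clusters at Sfi1, a centrosome gene (chr11:3193096-3193641), ranked 98.2, 97.9 and 94.8 in AD/- and 99.97, 99.98 and 99.97 in null (limma adjusted p = 0.307). Members of the cluster near Ccr7, a homing receptor gene, and of that near Socs3, a cytokine signalling inhibitor, lay at the bottom of the scale. The Ccr7 member ranked 0.687, 0.903 and 1.32 in AD/- and 5.19, 6.84 and 5.02 in null (limma adjusted p = 0.527). In the direction of AD/-, a member in Cyth1, which encodes an exchange factor of ARF GTPases, ranked 3.52, 3.90 and 4.42 in AD/- and 0.560, 0.485 and 0.180 in null (limma adjusted p = 0.527). A member in Ncoa2, a nuclear receptor coactivator gene, ranked 23.76, 29.98 and 32.37 and 11.2, 14.6 and 12.8 (limma adjusted p = 0.692). A member in Hc/Traf1 ranked 43.2, 43.0 and 48.5 and 28.1, 30.2 and 30.4 (limma adjusted p = 0.692). These members were picked by p, and their values are a description. Chromosome 11, which carries Trp53, held 7 of the 20 members with the lowest p, 10 in each direction, and 10.02% of all members. Of its 436 members, 30 (6.88%) had an unadjusted p under 0.05, as did 4.99% of all its shared regions, and the other chromosomes had between 1.91% and 9.66% of their members there.

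In the 10-member cluster at the assembled start of chromosome 9 (chr9:3000163-3036326), every AD/- library was above every null library. The nearest coding gene, Alkbh8, is 298905 bp away. The cluster's library means were 37.0, 37.1 and 65.6 in AD/- and 31.6, 23.0 and 25.6 in null, with AD/- library 3 far above the other 5. The gap between the genotypes was smaller than the range within AD/-. The first Sfi1 cluster, of 6 members, had means of 18.3, 18.6 and 35.6 in AD/- and 15.36, 14.99 and 17.79 in null, again highest in AD/- library 3. Both loci hold sequence that recurs elsewhere in the mouse genome, the sources used here do not say whether reads with several matches or problem regions were removed, and the part of this in the values was not tested. Without the summits of these 3 clusters there were 661 clusters with 4330 members.

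Cluster spans also held regions that the rule did not ask to be shared. Of the 5854 regions of any kind inside spans, 1377 (23.5%) were found in fewer than 6 libraries, compared with 50.1% outside them, a gap that the rule sets because the spans are built from shared regions. Of these 1377 regions, 17 (1.23%) had a summit in all 3 AD/- libraries and in 0 null libraries, against 0.372% of all regions found in fewer than 6 libraries. The reverse held for 18 (1.31%), against 0.876%. Both shares were above those of all such regions, and neither difference was tested. With 3 libraries against 3, a region alone cannot pass a test. A summit of the opposite genotype lay within 2 kb of 13 of the 17 and 14 of the 18, compared with 56 of 112 and 89 of 286 of the regions of 1 genotype outside spans. The lowest score percentile over the 3 libraries that held the region had a median of 9.41 and 7.63 inside spans and of 9.30 and 10.8 outside. Leaving out 1 library, which also loosens the definition, gave 20 to 61 regions for AD/- (61 without AD/- library 3) and 29 to 59 for null (59 without AD/- library 2). The Sfi1 and chromosome 9 clusters held 4 of the 17. The following regions were chosen after their values were seen. The 3 AD/- regions with the highest such percentile lay in clusters at Tbc1d22a (61.4), near Ptprc (51.8) and at Prss16 (41.3), each with a null summit 933 to 1854 bp away.

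Genes of T cells were often near a cluster. Of 20665 protein-coding genes on chromosomes 1 to 19, 6.84% had a cluster within 50 kb, and the share rose with gene length from 4.34% for genes under 10 kb to 10.6% for genes of 100 kb or more. Of 48 genes for T cell transcription factors, 21 (43.8%, 95% Wilson interval 30.7 to 57.7) had one. Of 44 genes of the T cell receptor and its signalling, 21 (47.7%) had one, and of 27 genes for cytokine and homing receptors 11 (40.7%). These shares describe the lists and were not tested. The median lengths of genes in these 3 lists were 52.3, 40.1 and 31.1 kb, compared with 17.5 kb for all coding genes. Of the distal shared regions within 50 kb of their genes, summed over genes, members made up 35.5%, 43.1% and 36.8%, respectively. The same share was 42.6% for housekeeping, 41.2% for endothelial and mesenchymal and 50% for neuronal genes, with 61, 34 and 26 regions. It lay between 0 and 35.9% for the other lists, and the differences were not tested.

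Among the transcription factors, the largest clusters within 50 kb were those at Tcf7 (16 members) and Fli1 (14), at Ikzf1, Myb and Nfatc3 (11 each), at Ets1 (10) and at Foxp1 and Id3 (8 each). Myb is a proto-oncogene needed by thymocytes, Nfatc3 a calcium-driven factor of T cell activation, and Id3 an inhibitor of E proteins. Smaller clusters lay, among others, at Bcl11b, Ikzf3, Klf2 and Satb1 (7 members each), at Runx1, Notch1, Nr4a1, Nfatc1 and Nfkb1 (6 each), and at Gata3, Gfi1 and Nfatc2 (5 each). Not all of these clusters overlapped the gene. Those of Id3, Satb1 and Notch1 were 30997, 43087 and 25329 bp away, with 4, 3 and 4 of their members within 50 kb. The Tcf7 cluster had 10 of its 16 members within 50 kb, and the 2 clusters of Myb had 11 of their 18. The Gata3 cluster ranked 44.7 ± 2.56 in AD/- and 43.7 ± 2.24 in null (SD of 3 libraries). The Runx1 cluster ranked 52.4 ± 0.62 and 50.3 ± 1.40, with every AD/- library above every null library. The other 27 factors had none within 50 kb although many distal shared regions lay there. Lef1 and Rora had 19 such regions each, Tox and Tcf12 had 15 each, and Runx3, which silences Cd4 in CD8 cells, had 11. Those regions were spaced too widely, or in runs too short, for the rule.

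Among the receptor and signalling genes, Cd8a and Cd8b1 shared the cluster of 15. Cd247, the zeta chain of the receptor complex, had 2 clusters, of which the larger, with 11 members, was the one in the neighbouring Rcsd1. Of the 20 members of these 2 clusters, 11 lay within 50 kb of Cd247. Txk and Tec, kinases of the Tec family, Cd69, and Csk, the kinase that restrains Lck, had clusters of 10, as did Rasgrp1, an activator of Ras, at 46838 bp. Only 1 of the 10 members of the Rasgrp1 cluster lay within 50 kb of that gene. The Csk cluster ranked 52.5 ± 1.93 in AD/- and 51.5 ± 2.098 in null (SD of 3 libraries), and the Cd69 cluster 39.9 ± 2.54 and 37.8 ± 0.76. Cd3d, Cd3e and Cd3g, Cd4, Lck, Zap70 and Lat, all central to the receptor's signal, had no cluster within 50 kb, with 5 to 7 distal shared regions each.

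Among the receptors for cytokines and homing signals, Ifnar1, a type I interferon receptor chain, had a cluster of 10. Il21r and Il4ra shared one of 8, and Ccr7, Il6st and Itga4 had clusters of 7. Il7r and Cxcr4 had none. Of 10 genes of receptor gene recombination, 3 had a cluster within 50 kb. Rag1 and Rag2, the recombinase, shared the cluster in Iftap, 44349 and 30809 bp away. Of its 11 members, 2 and 4 lay within 50 kb of them. Dntt, the polymerase that adds bases at junctions, overlapped a cluster. The Dntt cluster of 8 members ranked 50.9 ± 0.41 in AD/- and 52.0 ± 0.99 in null (SD of 3 libraries). Of 17 genes of survival and death, 4 (23.5%) had one. These were the survival genes Bcl2l1 and Mcl1, with 7 members each, and the death genes Bbc3 and Bak1, with 6 and 5. Bcl2 had none.

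Of 30 known p53 target genes, 7 (23.3%, 95% Wilson interval 11.8 to 40.9) had a cluster within 50 kb, against 6.84% of all protein-coding genes. A cluster overlapped 1 of the 30 (3.33%), against 2.47% of all protein-coding genes. Neither difference was tested. The 7 were Bbc3, which encodes the death protein PUMA, Aen, Btg2, Phlda3, Sfn, Cdkn1a, which encodes the cell cycle inhibitor p21, and Perp. Their clusters had 5 or 6 members each. The Cdkn1a cluster was 33317 bp away and the Perp cluster 46999 bp, with 4 and 1 of their members within 50 kb. The Bbc3/Sae1 cluster ranked 55.0 ± 1.66 in AD/- and 53.5 ± 0.85 in null, and the cluster near Aen 40.1 ± 3.41 and 39.5 ± 0.99 (SD, n = 3 each), both with overlapping libraries. Mdm2, the ubiquitin ligase that degrades p53, had none.

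The remaining lists differed widely. Of 28 genes of PPAR signalling and lipid metabolism, 3 had one, among them Srebf1, a regulator of lipid synthesis, with 10 members. Of 24 genes of glycolysis and respiration 0 had one, and of 14 housekeeping genes 4 (28.6%) had one, among them Actb, Tfrc and Ywhaz. Markers of other cell types were near a cluster for 1 of 10 B cell genes (Blnk), 1 of 12 myeloid genes (Mpo), 0 of 7 erythroid genes, 1 of 12 thymic epithelial genes (Prss16) and 3 of 12 endothelial and mesenchymal genes (25%; Acta2, Pecam1, Col1a1). The housekeeping and the endothelial and mesenchymal shares were above the 6.84% of all protein-coding genes. So were the shares of the PPAR and lipid, B cell, myeloid and thymic epithelial lists. The shares of the glycolysis and respiration list and of the erythroid list were below it. Of genes of other organs, 1 of 15 neuronal genes (Camk2a) and 0 of 14 liver genes had one, both shares also below it. None of these differences was tested. The median number of distal shared regions within 50 kb was 10 for T cell transcription factors, 8 for receptor and signalling genes, 2 for B cell markers, 1 for liver genes and 0 for neuronal genes. It was 7 for survival and death genes and 4 each for housekeeping genes and p53 targets. Markers of thymocytes, the labelled tissue's main cells, were mixed. Cd8a, Cd8b1, Rag1, Bcl11b and Tcf7 had a cluster within 50 kb, and Cd3e, Cd3d, Cd4, Lck and Ptcra had none. Those without a cluster had 7, 6, 5, 5 and 1 distal shared regions there, respectively.

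**Figure D5:**
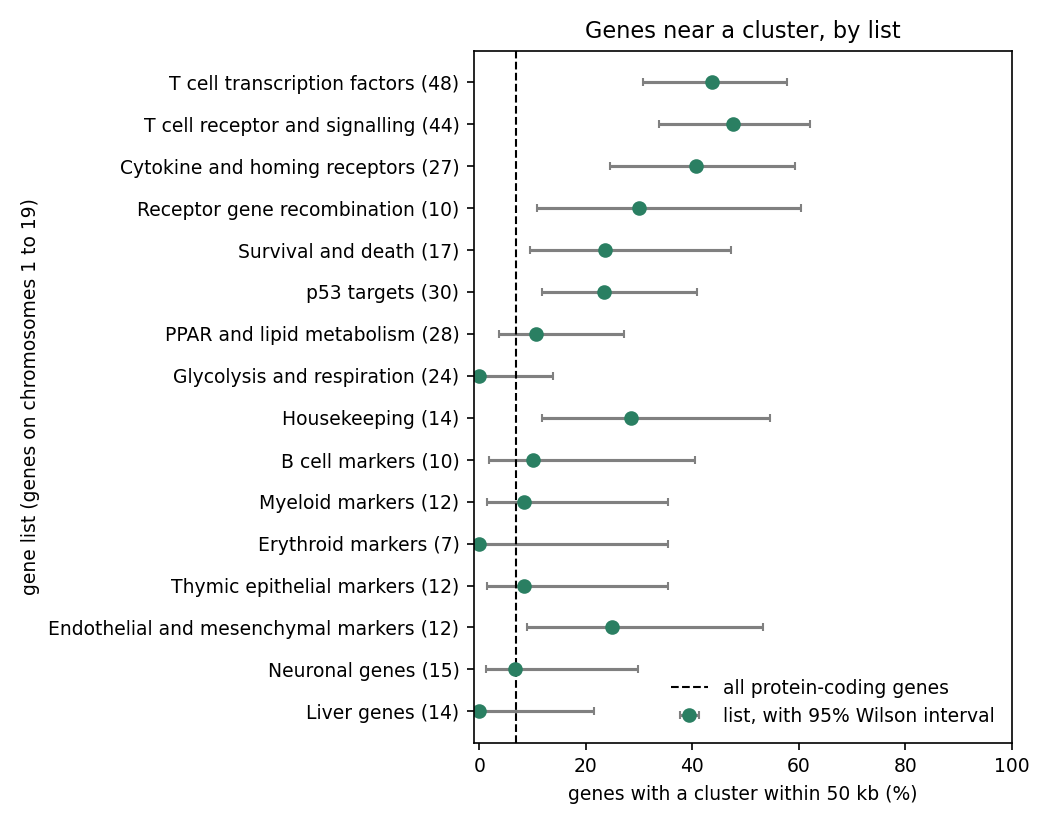
Percent of the genes of each list with a cluster within 50 kb (x axis; y axis, list with its number of genes), as points with 95% Wilson intervals that cover counting error only, and 6.84% of all protein-coding genes as a dashed line. The 3 T cell lists lie at 40.7% to 47.7% and the liver, erythroid and glycolysis lists at 0.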

How the data were processed

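For each library the authors deposited a summit list, called per sample, whose score was taken as −log10 of a q-value because the lowest scores are 1.30 to 1.39. The submitters' processing notes name MACS2 2.1.2, Bowtie2 2.3.4.2, Picard 2.9.0, Trim Galore 0.4.5 and the build GRCm38, with no settings. Read shifting, duplicate removal and masking are not given in the sources used here. Scores rise with depth, which is unknown, so they were used as ranks within a library over the shared regions.

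Regions and chains were built in Python 3.11.15 (pandas 2.3.3, NumPy 2.4.6, SciPy 1.17.1) with the RefSeq gene table of GRCm38.p6. Shared regions were compared between genotypes with limma 3.58.1 (R 4.3.3) on normal scores of the ranks, with Benjamini-Hochberg adjustment over all of them. Group means were compared by exact permutation over 20 relabellings, and classes of region by exact sign flips over the 6 libraries. The scripts were tested on simulated data. Wilson intervals cover counting error only. Replicates were numbered in order of deposition and pair nothing. No genome sequence was used here, so member sequences were not searched.

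The members and the 16 gene lists were chosen with earlier results of these data known. The rule for names takes the 25 largest clusters, up to 8 genes of a list by largest cluster within 50 kb, up to 10 members per direction passing limma, and the 5 highest and 5 lowest clusters by rank. Names outside it, the printed windows and miRNAs, the members of lowest p, the added comparisons and the 3 clusters left out were chosen after values were seen. Alternatives were extensions of 100 and 500 bp, stitching at 5 and 25 kb, chains of at least 3 or 10, scores of at least 5, lists of equal length, gene ends within 2.5 kb, quantile-normalized log2 scores, gene distances of 10 and 100 kb and each library left out. Some genes that the rule names are not reported here.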

Additional observations from a re-analysis of the deposited data

How the results depend on the processing

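The counts of clusters and members follow the rule by construction: 70 and 389 with stitching at 5 kb, 1394 and 11121 at 25 kb, 2449 and 10280 with chains of 3 or more, 60 and 676 with chains of 10 or more. The share of T cell transcription factor genes near a cluster was 13% (6 of 48), 70.8%, 72.9% and 13% (6 of 48) under these settings, beside 0.765%, 18.8%, 21.4% and 0.750% of all coding genes. The lead of members over other distal shared regions in median rank was positive under every setting tried. It passed at 3.75 points with an extension of 500 bp, 2.75 with chains of 10 or more and 4.42 with lists of equal length, each with an adjusted p of 0.0469. With 5 libraries the sign-flip test cannot pass. For the difference in summits per region, the sign turned at 0.0175 (extension 500 bp, adjusted p = 0.0469), 0.00128 (5 kb), 0.000676 (25 kb), 0.000568 (chains of 3) and 1.96e-05 (scores of at least 5), it passed at −0.000446 with equal lists, and it ran from −0.000525 to 0.000144 when 1 library was left out. The summit position difference passed at −1.67 bp with chains of 10 or more and ran from −0.2 to 0.4 bp when 1 library was left out. The genotype difference in median member rank turned to −0.12 (500 bp) and −0.093 (equal lists) and ran from −0.38 to 1.002 without 1 library, that in summit share from −0.20 (without AD/- library 3) to 0.853 points, and the member count from 4429 to 6721. Regions of 1 genotype in spans numbered 8 for AD/- with 500 bp, 2 and 0 for AD/- and null at 5 kb, 32 and 56 at 25 kb, 31 for null with chains of 3, 3 and 4 with chains of 10, 7 and 8 with scores of at least 5, 11 and 4 with equal lists, and from 20 to 61 and 29 to 59 without 1 library. The causes were not tested. limma called 1 of 35294 shared regions with scores of at least 5 and 0 under the other settings, and 0 members under every setting. No paired analysis was possible because the labels carry no replicate numbers. The unknown read depth and the shortest list limit which regions could be shared.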

Other observations

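The X chromosome, which the rule leaves out, held 2 chains of 5 or more by the same steps, with 12 of its 456 distal shared regions (2.63%). One had 5 members beside Cd40lg, the gene for CD40 ligand of activated T cells, and Arhgef6. The other had 7 members in Sh3kbp1, an adaptor gene.

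The member nearest to Mir339, in the Cyp2w1/Gpr146 cluster, ranked 20.8, 18.5 and 7.37 in AD/- libraries 1 to 3 and 0.706, 0.890 and 6.94 in null libraries 1 to 3. The groups did not overlap, but 7.37 in AD/- library 3 was close to 6.94 in null library 3. No member passed limma, and the region was singled out after its values were seen.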
